A study of Mus musculus with 68 samples.

Results

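The Obox genes are a family of mouse homeobox genes named for their expression in the oocyte. They were taken from the gene tables as every gene whose symbol is Obox followed by 1 digit, which gave 6 of 24421 genes, namely Obox1, Obox2, Obox3, Obox5, Obox6 and Obox7. The tests concern the 5 genes of the list of members. Obox7, which the same pattern matched, is given beside them by its values and by its tested change from the early to the late 2-cell stage. The series measured polyadenylated RNA by Smart-seq, with 10 blastomeres per reaction, in 68 libraries of mouse embryos and cells. The first experiment holds 3 libraries of cumulus cells (CC), the nuclear donors, and 53 libraries of somatic cell nuclear transfer (SCNT) embryos. In these embryos a CC nucleus was injected into an enucleated metaphase II oocyte of a BDF1 mouse (B6D2F1 in the study's methods) and the construct was activated with SrCl2 in the presence of cytochalasin B. The SCNT libraries cover 6 h and 14 h post activation (6 hpa, 14 hpa), the early and late 2-cell stages (E2C, L2C), 4-cell and 8-cell embryos (4C, 8C), morulae and both parts of the blastocyst, the inner cell mass (ICM) and the trophectoderm, its outer layer (TE), with 5 libraries at 4C and 6 at each other stage. The second experiment used fertilized blastocysts (NF) divided in the same way, in 12 libraries, 2 for each part with the control, with a morpholino (MO) against Max or with a MO against Mcrs1. The controls are labelled control and untreated, while the protocol describes zygotes injected with a random control MO. The study's methods name C57BL/6j mice for the fertilized embryos. For the sequenced embryos the study gives lower concentrations of the Max and Mcrs1 MO than of the control MO. The study describes the libraries of a group as biological replicates, and the labels do not say what a replicate number shares between stages.

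A homeobox encodes the homeodomain, a fold with which transcription factors bind DNA. An oocyte stores RNA for the first steps of development, and this maternal RNA is degraded while the embryo starts its own transcription, which in the mouse happens mainly at the 2-cell stage. A gene of this family can therefore contribute maternal RNA carried over with the oocyte cytoplasm, RNA made by the embryo, or both.

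The 6 genes lie on chromosome 7 (mm10, positions as given in the tables). Obox7 is at chr7:14659708-14665996 on the plus strand, Obox2 at chr7:15388851-15398543 (plus), Obox1 at chr7:15547257-15556846 (plus), Obox3 at chr7:15625306-15639777 (minus), Obox5 at chr7:15750370-15759274 (plus) and Obox6 at chr7:15833250-15839679 (minus). Each gene had 1 row per table. Their transcripts are similar, which limits how far reads can be told apart. In the GENCODE M21 transcripts the Obox1 and Obox2 sequences were 99.2% identical over 1459 aligned bases, and 31.4% of the 150-base windows of Obox1 occurred unchanged in Obox2. For this pair, the way the authors' tools divided shared reads can move the values, and each value of Obox1 and Obox2 is uncertain to that extent. No 150-base window was shared by any other pair of these 6 genes. Obox8 and the 47 GENCODE genes named Obox4-ps or Obox3-ps were not compared, so reads shared with them are not covered. Obox6 was the most distant member, at 78.0% to 79.5% identity to the other 5.

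The sequences just before the transcription start are shown because genes with opposite time courses share them. The RefSeq promoter table (GRCm38.p6, 250 bases before to 50 after each start) holds 5 of the 6 genes, all but Obox6. The lines give the 75 bases that end immediately before the letters TATATAA, 5′ to 3′ on the gene's strand, with capitals at bases that differ from Obox1. They lie at chr7:15547163-15547237 (Obox1), chr7:15750264-15750338 (Obox5), chr7:14659628-14659702 (Obox7) and chr7:15639808-15639882 (Obox3, minus strand).
Obox1: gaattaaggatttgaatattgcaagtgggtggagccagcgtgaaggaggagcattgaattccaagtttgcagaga
Obox5: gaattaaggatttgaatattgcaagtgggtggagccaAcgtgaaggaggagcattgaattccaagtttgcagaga
Obox7: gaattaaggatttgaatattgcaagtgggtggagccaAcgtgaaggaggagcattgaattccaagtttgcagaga
Obox3: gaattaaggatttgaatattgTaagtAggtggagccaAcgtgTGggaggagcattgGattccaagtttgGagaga
Obox5 and Obox7 each differed from Obox1 at 1 of these 75 bases and Obox3 at 7. In Obox2 the first 21 bases of the stretch began 4 bases past the annotated start, so that stretch is not printed. TATATAA, searched on both strands and chosen after the sequences were seen, was in 4 of the 5 Obox windows and in 3.24% of all 32851 windows. CANNTG, the E-box pattern, was in 4 of the 5 Obox windows and in 72.3% of all windows. TAATCC, the site of CRX-kind homeodomains, was in the Obox3 window alone among these 5, on the minus strand at position -168 from the start, and in 7.06% of all windows. TAATTG was in none of the 5 and in 8.0% of all windows, which says only that these letters are not in these windows.

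Over all 68 libraries the aligned bases ranged from 1.0 to 5.17 gigabases. In L2C replicate 1, the TPM of the reference genes came to 30.4% of 1000000, the total over the loci assembled from a library. This was the lowest value of any library, and results that turn on this library are given with and without it. The labels were compared with marker genes. The summed level of 8 cumulus markers was 1234 to 1922 TPM in CC and at most 66.2 TPM in any SCNT library, and the sum of 9 oocyte markers, all of them at a mean of 1 TPM or more from 6 hpa to L2C, was 6476 to 15628 TPM at 6 hpa. TE markers were abundant in the SCNT libraries labelled ICM, with a summed level of 1949 to 8400 TPM against 5137 to 16125 TPM in those labelled TE, so that the ICM libraries cannot be taken as free of TE RNA.

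Sorting the genes by their level gave 4 maternal copies, high at 6 hpa, and 2 zygotic copies, which rose at L2C. Obox1, Obox2, Obox5 and Obox7 were at a mean of 746 to 4886 TPM at 6 hpa, while Obox3 and Obox6 were at 0.457 and 2.06 TPM there. Since the sorting used these levels, 3 results restate it, namely which members were above CC at 6 hpa, the rise of Obox3 and Obox6 at L2C, and the opposite directions of the 2 kinds of copy at that stage.

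**Figure D1:**
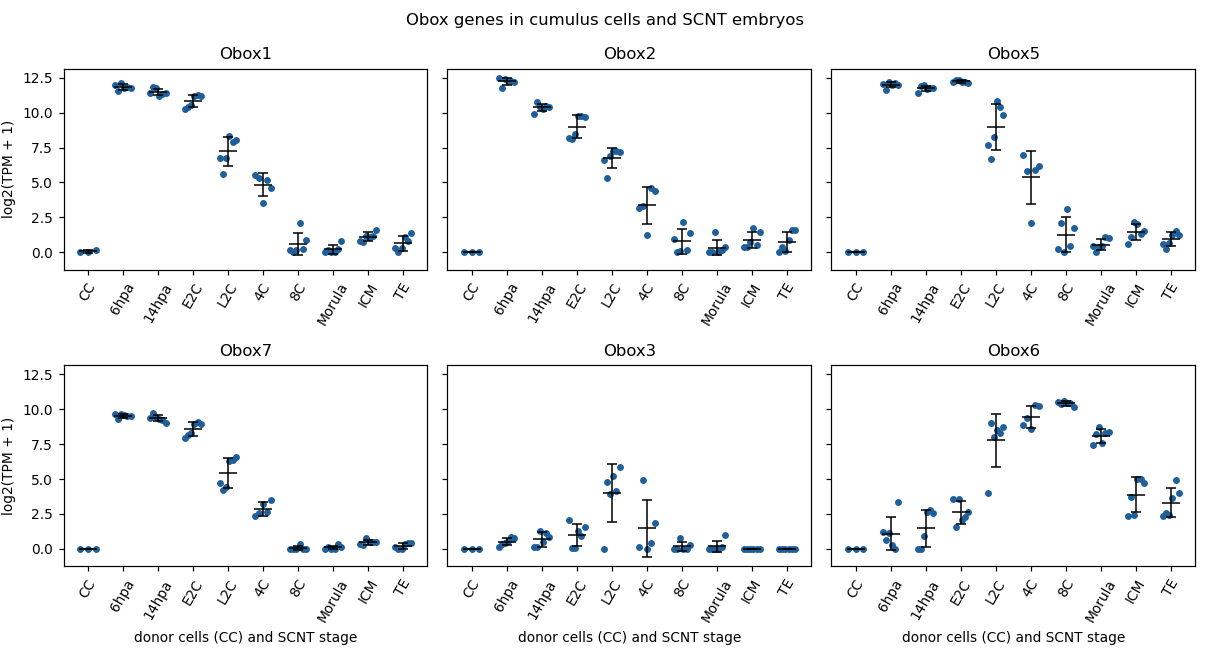
Level of each of the 6 Obox genes, as log2(TPM + 1), in CC and at each SCNT stage. Points are libraries, and the horizontal mark with its bar is the mean ± SD. The 4 maternal copies start high at 6 hpa and fall to near 0 by 8C, Obox3 is highest at L2C and Obox6 at 8C.

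The maternal copies were among the most abundant genes of the reconstructed oocyte and were nearly absent from the donor cells. Obox1 had a lowest, median and highest level of 3032, 3608 and 4426 TPM at 6 hpa, Obox2 of 3555, 4897 and 5800 TPM, and Obox5 of 3154, 4204 and 4727 TPM. By mean level they ranked 28, 20 and 25 among the 24421 genes. In CC, Obox2, Obox3, Obox5, Obox6 and Obox7 were listed at 0 in all 3 libraries, and Obox1 was listed at 0 in 2 libraries and at 0.123 TPM in the third. As the sorting sets, Obox1, Obox2 and Obox5 were past the threshold in 6 hpa against CC, while Obox3 and Obox6 were not (limma, adjusted p = 0.525 and 0.194). The threshold throughout was a Benjamini-Hochberg adjusted p under 0.05 over all genes tested and a change of at least 2-fold, and 61.4% of 12084 genes passed it in this comparison. Since CC values are listed at 0, no fold is given.

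The levels of the 3 most abundant maternal copies then fell at different times. Obox2 fell first, from a mean of 4886 ± 759 TPM at 6 hpa to 1345 ± 243 TPM at 14 hpa (SD, n = 6 each), and the 2 groups of libraries did not overlap. On the log2(TPM + 1) scale, on which all fold changes are given, this was a change of -1.86 with a standard error of 0.42 (limma, adjusted p = 0.00101), and with a pseudocount of 0.1 it was again -1.86 but not past the threshold (adjusted p = 0.11). It was the 1 member of 5 past the threshold in that step, which 11.1% of 11867 genes passed. Obox1 was at 2376, 2700 and 3623 TPM (lowest, median, highest) at 14 hpa and Obox5 at 2710, 3438 and 4026 TPM, both overlapping their 6 hpa libraries, with log2 changes of -0.37 (SE 0.34, limma adjusted p = 0.638) and -0.26 (SE 0.53, adjusted p = 0.907). At E2C, Obox2 was lower again, at 578 ± 297 TPM (SD, n = 6), with a log2 change of -1.38 (SE 0.42, limma adjusted p = 0.0323), and was again the 1 member past the threshold, where 5.83% of all genes were. That call ended under several alternatives, among them replicates 4 to 6 alone (log2 change -0.65, adjusted p = 0.32) and each of the fits without replicate 1, 2 or 3 (-1.31, -1.13 and -1.26).

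Between 14 hpa and E2C, Obox5 moved unlike Obox1 and Obox2. Its libraries were at 4456, 4753 and 5192 TPM (lowest, median, highest) at E2C, all above its 14 hpa libraries, and its mean ranked 12 among all genes. The log2 change of 0.49 (SE 0.53) was not past the threshold (limma, adjusted p = 0.739). Obox1 was at 1251, 1917 and 2479 TPM at E2C, and its log2 change of -0.66 (SE 0.34) was not past the threshold either (limma, adjusted p = 0.316). In replicates 1 to 3 the log2 changes were -1.24 for Obox1 and 0.53 for Obox5, and in replicates 4 to 6 they were -0.07 and 0.46, so the gap between these genes was smaller in the second set. The difference between genes was tested within libraries, by a two-sided exact permutation test of the log2 difference of a pair, over 10 pairs in each of 3 early steps and adjusted over all 30, a family chosen after the data were seen. From 14 hpa to E2C, Obox1 minus Obox5 moved from -0.26 to -1.41, a difference of -1.15 (exact permutation p = 0.00216, the smallest that 924 splits allow, adjusted p = 0.005). Obox2 minus Obox5 moved by -1.87 in the same step and by -1.60 from 6 hpa to 14 hpa (adjusted p = 0.005 for both, exact permutation test). Obox1 minus Obox5 moved by -0.11 from 6 hpa to 14 hpa (adjusted p = 0.325). In all, 18 of the 30 differences passed, 4, 6 and 8 of 10 in the 3 steps in order, and from E2C to L2C the pairs of a maternal with a zygotic copy restate the sorting. No pairs of other genes were tested, so these counts have no share of all pairs beside them. The pair Obox1 and Obox2, which moved apart by 1.5 from 6 hpa to 14 hpa (adjusted p = 0.005), is the pair whose transcripts share windows.

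The E2C libraries fell into 2 sets by replicate number. Obox1 was at 1251 to 1515 TPM in replicates 1 to 3 and at 2320 to 2479 TPM in replicates 4 to 6, and Obox2 at 275 to 357 TPM and 831 to 869 TPM. Obox7 was split the same way, at 250 to 308 TPM and 494 to 557 TPM, while Obox5 overlapped, at 4706 to 5192 TPM and 4456 to 4801 TPM. Of the 10610 genes with a mean of at least 1 TPM at E2C, 44.3% had no overlap between these sets, so the split was common in these libraries. At L2C the maternal copies were all split. In the same order of sets, Obox1 was at 46.5 to 108 and 232 to 326 TPM, and Obox2 at 39.7 to 117 and 146 to 154 TPM. Obox5 was at 102 to 299 and 929 to 1790 TPM, and Obox7 at 17.9 to 25.8 and 78.3 to 95.8 TPM. At this stage 28.1% of 12031 genes had no overlap. The summed oocyte markers moved with the split, at 2835 to 3519 and 4265 to 4662 TPM at E2C and at 670 to 1441 and 2533 to 2831 TPM at L2C. Their part in it was not tested. What the replicate numbers stand for is not given in the sources used here.

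**Figure D2:**
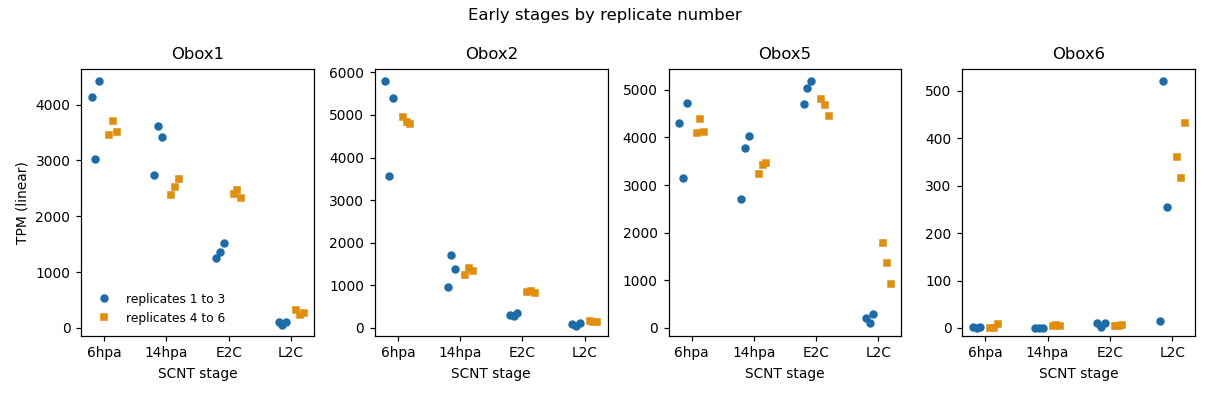
TPM of Obox1, Obox2, Obox5 and Obox6 on linear axes at the first 4 SCNT stages, with circles for replicates 1 to 3 and squares for replicates 4 to 6. At E2C the 2 sets are apart for Obox1 and Obox2 but not for Obox5, and at L2C the lowest Obox6 point is replicate 1 at 15.2 TPM.

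Between E2C and L2C all 5 members changed, 3 down and 2 up, where 34.9% of all genes passed (23.7% up and 11.2% down). The 2 that rose are those the sorting chose for it, and Obox3 reached the test through its L2C level. Obox1 fell to 46.5, 170 and 326 TPM (lowest, median, highest), a log2 change of -3.61 (SE 0.34, limma adjusted p = 4.9e-12). Obox2 fell to 39.7, 131 and 154 TPM (log2 change -2.25, SE 0.42, limma adjusted p = 2e-05) and Obox5 to 102, 614 and 1790 TPM (-3.28, SE 0.53, adjusted p = 1.4e-06). For each of these 3 genes every L2C library was below every E2C library. The share of all genes without overlap between these stages was not counted. Obox7 fell likewise, from 400 ± 133 TPM to 53.3 ± 35.3 TPM (SD, n = 6 each), a log2 change of -3.13 (SE 0.29, limma adjusted p = 2.6e-12). With 10 blastomeres pooled per reaction, fewer cells that hold a transcript and less of it per cell cannot be told apart, and TPM gives shares of the RNA pool.

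Obox6 rose more than Obox3 at this step on the log2(TPM + 1) scale. Obox3 minus Obox6 moved by -2.14 (exact permutation test, adjusted p = 0.0122 over the 30 differences). Obox3 lay near the added 1 TPM at E2C, so the size of this difference depends on the pseudocount. With a pseudocount of 0.1 Obox6 again rose more, but by a smaller margin, and the pair was not tested at that setting for this step. Obox6 was at 2.03, 4.56 and 11.1 TPM (lowest, median, highest) at E2C and at 15.2, 339 and 521 TPM at L2C. Every L2C library of Obox6 was above every E2C library. The means were 6.02 and 317 TPM, a ratio of 52.6, and the log2 change was 5.14 (SE 0.61, limma adjusted p = 1.7e-09). The lowest L2C value, 15.2 TPM, was that of replicate 1, and the other 5 lay between 256 and 521 TPM. Obox3 rose to a much lower level. It was at 0.0341, 1.14 and 3.27 TPM at E2C and at 0, 22.1 and 57.4 TPM at L2C, with the 0 again in replicate 1, so that the groups overlapped through that library. Its log2 change was 3.01 (SE 0.56, limma adjusted p = 2e-05), and the call ended in replicates 1 to 3 alone (2.17, adjusted p = 0.12). Without L2C replicate 1 the changes were 3.81 for Obox3 and 5.9 for Obox6 (limma adjusted p = 2.8e-09 and 1.9e-12). Obox3 passed the filter on low values only through L2C and 4C. Its median coverage at L2C was 29.7 reads deep, against 507 for Obox6.

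From 6 hpa to L2C, a span that takes in these steps, all 5 members were past the threshold, where 46.9% of all genes were (30.9% up and 16% down). The sorting used the level at 6 hpa and the rise at L2C, so this count restates it in part. Obox3 reached the test through its L2C level. The log2 changes were -4.63 (SE 0.34) for Obox1, -5.49 (SE 0.42) for Obox2, -3.05 (SE 0.53) for Obox5, 3.48 (SE 0.56) for Obox3 and 6.68 (SE 0.61) for Obox6. The median change of all genes was 0.37, and quantile normalization, which set that median to -0.02, turned the split of all genes from 3672 up and 1897 down to 2848 up and 3175 down without changing the direction of a member. All 10 pairs of members changed unlike each other (two-sided exact permutation test, p = 0.00216 and adjusted p = 0.00216 for each, the smallest that 924 splits allow). Pairs of other genes were not tested in this way, so this count is not read as a trait of the family. The pairs across the maternal and zygotic copies restate the sorting. Within the maternal copies, Obox1 minus Obox5 moved by -1.58, Obox2 minus Obox5 by -2.44 and Obox1 minus Obox2 by 0.86. These differences were -1.11, -1.54 and 0.43 in replicates 1 to 3, and -2.04, -3.34 and 1.30 in replicates 4 to 6. Obox3 minus Obox6 moved by -3.20.

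**Figure D3:**
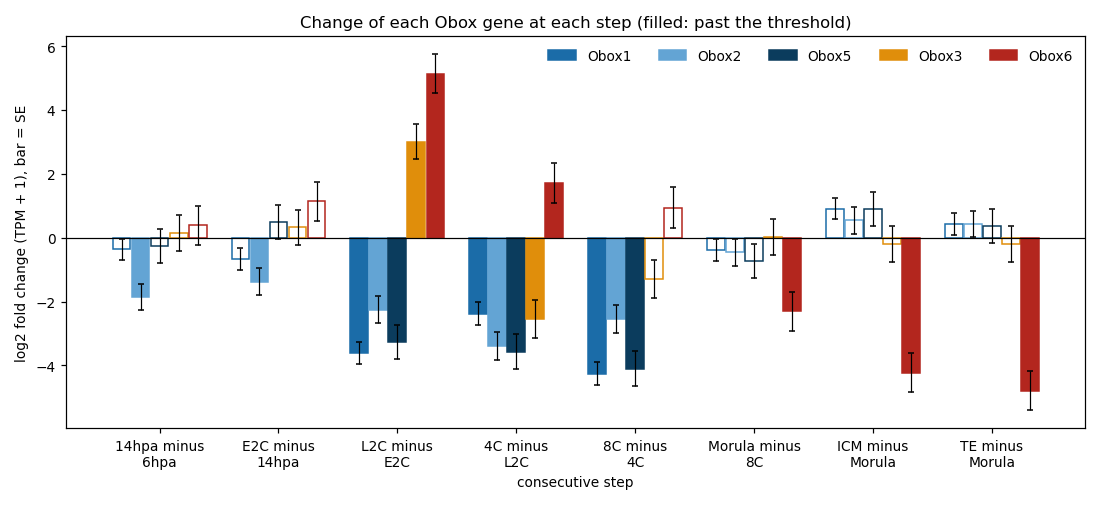
Log2 fold change of the 5 members at each of 8 consecutive steps on the log2(TPM + 1) scale, with bars of 1 standard error from limma. Filled bars are past the threshold (18 of 40), and L2C minus E2C and 4C minus L2C are the steps at which all 5 members are.

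At 4C the maternal copies fell further, Obox3 fell from its L2C level and Obox6 was the one member that was higher. All 5 were past the threshold, where 38.4% of all genes were, though Obox3 reached the test through its L2C level. Obox1 had a mean of 30.8 ± 13.6 TPM, Obox2 of 12.4 ± 9.14 TPM and Obox5 of 62.0 ± 42.5 TPM (SD, n = 5). The 5 Obox6 libraries were at 468, 648, 389, 1292 and 1212 TPM. The log2 change of Obox6 was 1.71 (SE 0.64, limma adjusted p = 0.0264), and without L2C replicate 1 it was 0.96 and no longer past the threshold (adjusted p = 0.18). Obox3 was at 0.10, 29.1, 0, 0.36 and 2.56 TPM, so 1 library held most of its 4C level, and its log2 change was -2.54 (SE 0.59, limma adjusted p = 0.00037). That call ended in replicates 1 to 3 alone (-1.23, adjusted p = 0.41) and when L2C and 4C were fitted by themselves (adjusted p = 0.08). Without L2C replicate 1 the change of Obox3 was -3.34 (limma adjusted p = 1e-07). At 8C, Obox1, Obox2 and Obox5 fell to means of 0.741, 1.03 and 2.27 TPM, 3 of 5 members past the threshold against 19.8% of all genes. Obox3 changed by -1.29 (SE 0.59, limma adjusted p = 0.113), which was past the threshold in the fit without L2C replicate 1 (-1.29, adjusted p = 0.0355).

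Obox6 then held nearly all of the summed TPM of the 6 genes. At 8C its libraries lay at 1124, 1401 and 1519 TPM (lowest, median, highest), the smallest relative spread of any stage at which it was above 1 TPM, and its mean ranked 98 among all genes. It made up 99% to 100% of the summed TPM of the 6 genes at 8C, against 3.36% to 69.1% at L2C and at most 0.164% at E2C. That sum leaves out Obox8, a further Obox gene, over which loci assembled from the libraries had a mean of 153 TPM at 8C. The change of Obox6 from 4C to 8C was 0.94 (SE 0.64, limma adjusted p = 0.322). At the morula stage it fell to 171, 310 and 429 TPM, without overlap with 8C, a log2 change of -2.31 (SE 0.61, limma adjusted p = 0.00674), the 1 member of 5 past the threshold against 12.2% of all genes. It fell again to 4.23, 18.8 and 31.7 TPM in the ICM and 4.20, 8.20 and 29.2 TPM in the TE of SCNT blastocysts, with log2 changes of -4.23 and -4.80 (SE 0.61 for both, limma adjusted p = 3.7e-07 and 1.8e-08), again as the 1 member of 5 in each step (24.0% and 21.8% of all genes). In order of the mean, Obox6 was highest at 8C, then at 4C, L2C, morula, ICM, TE, E2C, 14 hpa and 6 hpa. The libraries of neighbouring groups in this order overlapped, except those of morula and ICM. Over the 8 steps, 18 of 40 tests of members passed, 3 up and 15 down, where 21% of all tests did. This count takes in the rises of Obox3 and Obox6 at L2C and falls of copies sorted as high at 6 hpa. It therefore restates the sorting in part and is not read as a result about the family.

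In fertilized blastocysts Obox6 was the only member with a mean of at least 1 TPM over the 12 libraries, and it was past the threshold in none of the 4 limma comparisons of a MO with the control. The highest value of any other member was 4.47 TPM, that of Obox2 in 1 control ICM library. The ICM libraries were at 30.7 and 126 TPM with the control, at 9.40 and 57.3 TPM with Max MO and at 6.80 and 23.2 TPM with Mcrs1 MO. The TE libraries were at 4.6 and 10.3 TPM, at 4.85 and 8.07 TPM and at 6.63 and 29.9 TPM in the same order. Against the control, the log2 change in the ICM was -1.36 with Max MO and -2.21 with Mcrs1 MO, and in the TE -0.13 and 0.95, each with a SE of 0.97 (limma adjusted p = 0.325, 0.16, 0.964 and 0.598). Without adjustment, the limma p was under 0.05 in 1 of these 4 comparisons, Mcrs1 MO in the ICM. With replicate number as a block, that comparison was past the threshold (-2.21, limma adjusted p = 0.024), and the labels do not say what a number shares. In the fit without the block, 23.7% and 10.1% of all genes passed in the ICM and 2.5% and 5.08% in the TE. Single libraries moved these values: leaving out 1 library at a time, the ICM change ranged from -2.61 to -0.12 with Max MO and from -3.20 to -1.21 with Mcrs1 MO, the latter past the threshold at -3.20, without control replicate 1. The difference between ICM and TE in the response was -1.23 for Max MO and -3.15 for Mcrs1 MO (limma interaction, adjusted p = 0.744 and 0.566). The 2 control ICM libraries differed in TE markers, with sums of 16031 TPM in the one with 30.7 TPM of Obox6 and 378 TPM in the one with 126 TPM. These sums were 2742 and 5857 TPM in the ICM libraries with Max MO and 11589 and 8088 TPM in those with Mcrs1 MO. The part of TE RNA in the Obox6 values was not tested. Beside the fertilized libraries, Obox6 in the SCNT libraries was at 18.2 ± 12.7 TPM in the ICM and 11.5 ± 9.72 TPM in the TE (SD, n = 6 each). It was at 4.23 to 12.4 TPM in SCNT ICM replicates 1 to 3, in which 6177 to 6771 genes reached 1 TPM. In replicates 4 to 6, in which 9011 to 10032 genes did, it was at 25.2 to 31.7 TPM. The experiments were separate, with different mouse strains in the study's methods, and no test was made between them.

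**Figure D4:**
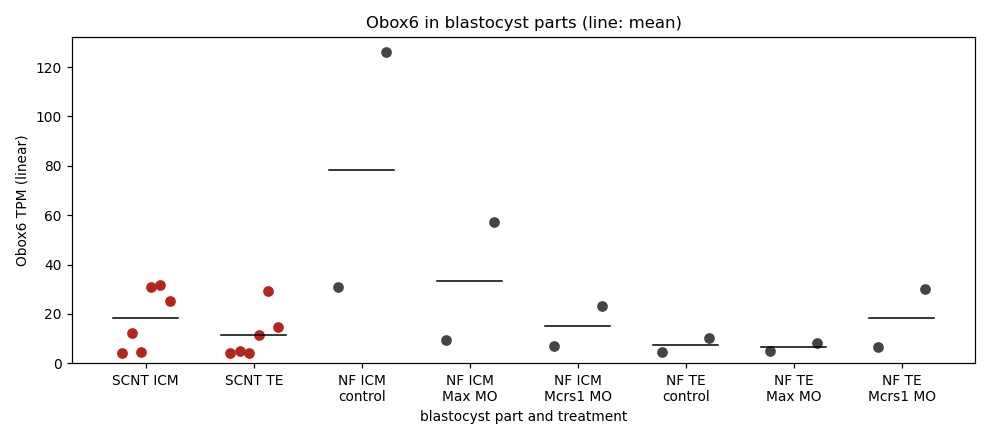
Obox6 TPM on a linear axis in each library of SCNT ICM and TE and of fertilized (NF) ICM and TE with the control, Max MO or Mcrs1 MO. Points are libraries and lines are means. The NF control ICM libraries lie far apart, at 30.7 and 126 TPM, and every TE library is at or below 29.9 TPM.

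Other genes of the oocyte and of the 2-cell embryo were counted from 3 lists. Of 8 oocyte transcription factors, 7 were measured and 6 tested, and from 6 hpa to L2C 1 rose and 2 fell, with a median log2 change of -0.31 against 0.37 for all genes, of which 30.9% rose and 16% fell, so the share of the list that passed was near that of all genes. Nobox, an oocyte homeobox factor, fell from 75.7 ± 27.8 to 8.64 ± 7.30 TPM (SD, n = 6 each), a log2 change of -3.38 (limma adjusted p = 3.3e-07), and Sohlh2 fell by 1.70 on the log2 scale (adjusted p = 1.2e-05). Taf4b, a subunit of a general transcription factor, rose by 1.19 (adjusted p = 0.0103). Of 12 genes of 2-cell genome activation, 11 were tested, and 9 rose and 1 fell from 6 hpa to L2C, against the same shares of all genes, with a median of 2.50. From E2C to L2C, the step at which Obox3 and Obox6 rose, 5 of the 11 rose and 1 fell, where 23.7% of all genes rose and 11.2% fell. Zfp352, a zinc finger gene of the 2-cell stage, changed by 5.76 from 6 hpa but by 0.34 from E2C (limma adjusted p = 6.2e-12 and 0.694), having reached 59.3 ± 18.8 TPM by E2C. Tcstv1 fell from 482 ± 120 to 92.2 ± 91.8 TPM (SD, n = 6 each), a log2 change of -3.48 (limma adjusted p = 9.3e-07). Dux was measured but did not reach a mean of 1 TPM.

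Among 13 other homeobox genes of the PRD and CRX kind, 11 were measured and 6 tested, and 4 rose and 1 fell from 6 hpa to L2C, where 30.9% of all genes rose and 16% fell. From E2C to L2C 1 rose, 1 fell and 4 did not pass, with a median log2 change of -0.59. Crxos, a homeobox gene next to Crx, rose from 3.71 ± 6.21 to 496 ± 481 TPM (SD, n = 6 each), a log2 change of 6.91 (limma adjusted p = 3.1e-13), and was at a mean of 5770 TPM at 8C and 4085 TPM in the ICM, where Obox6 was at 18.2 TPM. Duxbl2 and Duxbl3 changed by 2.12 and 2.13 from 6 hpa (adjusted p = 0.00295 and 0.00276) but by -0.71 and -0.67 from E2C (adjusted p = 0.382 and 0.411).

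The genes whose levels most resembled each member were found by Pearson's r of log2(TPM + 1) over the 53 SCNT libraries, which are grouped by stage, so that r mainly reflects a shared time course. For Obox1 they were E330034G19Rik, Bcl2l10 and Rfpl4 (r = 0.993 each) and for Obox5 Oosp3, E330034G19Rik and Rfpl4 (0.994, 0.994 and 0.992). For Obox2 they were other genes, D6Ertd527e, Fbxw22 and Fbxw14 (0.990, 0.988 and 0.986). Fbxw22 was at 1601 TPM at 6 hpa and 289 TPM at E2C, where E330034G19Rik was at 7104 and 7707 TPM. For Obox6 the first 2 were Cdk2ap1 and Trim43c (0.967 and 0.957), of which Trim43c was at 1.25 TPM at 6 hpa and 784 TPM at 8C. For Obox3 the first was AF067061 (0.945), at 25.0 TPM at L2C, followed by AA543401 and Vmn2r1 (0.835 and 0.833). Between members, r was 0.969 to 0.989 among Obox1, Obox2 and Obox5, and 0.278 between Obox3 and Obox6.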

How the data were processed

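The authors used cutadapt 1.16 for trimming, HISAT2 for mapping to mm10 and StringTie for TPM, and the submitters' processing notes also list Cufflinks and deepTools. The deposited tables, 1 per library, give coverage, FPKM and TPM per row. The deposited TPM signal sums to 1000000 over the loci assembled from each library, and 24421 reference symbols are listed beside them on the same scale, so the column sums to more than that. The deposited FPKM was used only with the deposited coverage, whose ratio gives aligned gigabases. TPM was summed per symbol. The tables give no read counts, so no count test or counting interval is given.

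The members and gene lists were chosen with earlier results of these data known. Named genes were the members, up to 4 genes per list by mean TPM, with Sohlh2 added after its values were seen, and the 3 genes most like each member, of which 1 is not reported here. Log2(TPM + 1) was fitted with limma 3.58.1 (R 4.3.3, lmFit, eBayes with trend). Genes averaging 1 TPM or more over the libraries of a fit were tested, 11867 for SCNT embryos, 12084 with CC added and 11219 for the MO experiment. The threshold was an adjusted p under 0.05 and at least 2-fold. Pairs were compared by two-sided exact permutation over libraries. In simulated data with 200 genes changed, the fit for L2C against 6 hpa on 11867 genes recovered 71% of changes of 2 and 99% of changes of 4 on the log2 scale, and the fit for Max MO in the ICM on 11219 genes recovered 51% and 81%. Python 3.11.15, numpy 2.4.6, pandas 2.3.3 and Biopython were used.

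Libraries with the same number, each taken relative to its group mean, correlated at over 0.1 in every pair for 14 hpa against 6 hpa (r = 0.142 to 0.390) and not in every pair for the other SCNT comparisons, and the labels do not say what a number shares. Alternatives were a pseudocount of 0.1, no filter or a mean of at least 5 TPM, quantile normalization, fits of the compared groups only, rescaling over reference genes, the largest row of a gene, a replicate block, replicates 1 to 3 or 4 to 6 alone, and leaving out replicates. Leaving out L2C replicate 1, counting Obox7 as a member, testing pairs at single steps and leaving out single MO libraries were chosen after the data were seen.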

Additional observations from a re-analysis of the deposited data

Results flagged for a closer look

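Among 36 combinations of an Obox gene and an SCNT stage, 2 had 1 library far from the others by Dixon's criterion, about as many as the 1 in 20 that chance flags. Obox3 was at 29.1 TPM in 4C replicate 2 and at 0 to 2.56 TPM in the other 4 libraries. Obox6 was at 9.15 TPM in 6 hpa replicate 6 and at 0 to 1.28 TPM in the other 5.

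The loci assembled from each library, which the comparisons above do not use, held signal over 2 annotated Obox genes without a row among the reference genes. A locus was counted when it lay on the gene's strand, covered at least 50% of it and was at most 3 times as long. Over Obox8, a protein-coding gene at chr7:14331436-14333557 (GRCm38, minus strand), the mean was 163 TPM at 4C, with libraries at 17.3, 0, 35.3, 406 and 357 TPM. All 6 libraries at 8C held such a locus, at 69.5, 177 and 224 TPM (lowest, median, highest), and no CC library did. Over Obox4-ps35 at chr7:15820167-15825815 (GRCm38, minus strand), annotated as a lincRNA, the mean was 63.3 TPM at L2C, where 5 of 6 libraries held one at 31.4 to 136 TPM and replicate 1 held none. It was 45.1 ± 33.6 TPM at 4C (SD, n = 5) and 13.4 ± 11.8 TPM at 8C (SD, n = 6). Neither locus was found in CC or in the 12 fertilized libraries, and no test was made.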

How the results depend on the processing

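Of 26 gene values past the threshold, none changed sign under 433 alternatives and 21 of these ended the call. Of 28 values not past it, 18 of 477 alternatives changed the sign and 14 of the rest passed the threshold. The causes were not tested. The count of members called over 8 steps was 15 to 21 against 18, and the replicate block left it at 18. In the MO experiment the count rose from 0 to 1 with the replicate block (Obox6, Mcrs1 MO in the ICM, -2.21, limma adjusted p = 0.024) and without NF-ICM-control replicate 1 (1 member, -3.20), and was 0 without any other single library. Leaving out a whole replicate number could not be fitted there. With a filter at a mean of 5 TPM Obox3 was not tested, which left 4 members called from 6 hpa to L2C. The block changed no other count by over 1.5 times.

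Values that changed sign, none of them past the threshold, were these. Under quantile normalization, Obox1 and Obox5 changed by 0.09 and 0.17 from 6 hpa to 14 hpa, Obox3 by -0.12 from 8C to morula and Obox6 by 0.34 in TE with Max MO. In replicates 1 to 3 alone, Obox6 changed by -0.68 from 6 hpa to 14 hpa, Obox2 by 0.13 from 8C to morula and by -0.32 from morula to TE, and Obox3 by -0.26 from 8C to morula. In replicates 4 to 6 alone, Obox6 changed by -0.32 from 14 hpa to E2C. With a pseudocount of 0.1, Obox3 changed by -0.03 from 8C to morula. Over the fits without 1 replicate, Obox6 ranged from -0.09 to 0.70 from 6 hpa to 14 hpa and Obox3 from -0.01 to 0.64 from 14 hpa to E2C and from -0.14 to 0.17 from 8C to morula, and without 1 library Obox6 in TE ranged from -0.64 to 0.38 with Max MO and from -0.06 to 1.95 with Mcrs1 MO.

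Calls that ended included Obox2 from 6 hpa to 14 hpa with a pseudocount of 0.1 (-1.86, limma adjusted p = 0.11), Obox6 from 8C to morula in replicates 1 to 3 alone (-2.36, 0.068) and Obox3 from L2C to 4C when only the compared groups were fitted (-2.54, 0.08). The median coverage at 6 hpa was 0.597 for Obox3 and 7030 for Obox2, so low values of Obox3 rest on few reads.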
